A study of Rattus norvegicus with 6 samples.

Results

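Immediate early genes are switched on within minutes of a stimulus, from transcription factors already present in the cell, and their mRNAs are short lived. Expression of 10 of them was compared between diabetic and normal rat diaphragm: Fos, Jun, Junb, Egr1, Myc, Atf3, Ier2, Ier3, Btg2 and Nr4a1. They were chosen by name, with earlier results of these data known, as a set of immediate early transcription factors and regulators. Ier2, Ier3 and Btg2 are immediate early genes too, but their proteins are not classed with the sequence-specific DNA-binding factors. Every probe set (a group of short probes against 1 transcript) that the platform annotation assigned to exactly 1 of these genes was used. These were 12 probe sets for 9 of the 10 genes, out of 15923 probe sets and 10411 named genes on the array, and 0 probe sets were shared with another gene. Btg2 had no probe set named to it alone, and its expression was not analysed here. Of the 12 probe sets, 11 passed the filter on low signal, with at least 1 for each of the 9 genes.

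The samples were the left costal hemidiaphragm of 6 male Wistar rats, 3 normal and 3 diabetic, with 1 array per rat. The diabetic rats had received a single intraperitoneal injection of streptozotocin (60 mg/kg), a toxin of the insulin-producing cells of the pancreas, at 8 weeks of age. The normal rats received the citrate buffer alone, at the same age. Muscle was removed 4 weeks later from rats fasted overnight, under ketamine, xylazine and acepromazine anesthesia in both groups. The diabetes is of the insulin-deficient kind, streptozotocin can itself be toxic to tissue, and no group received streptozotocin without becoming diabetic. Immediate early genes also respond to handling, anesthesia and removal of a muscle, steps which all 6 rats underwent and whose timing is not given in the sources used here. Signals are those of MAS 5.0, the Affymetrix software that condenses the probes of a probe set to 1 intensity. They are on a linear scale. Probes differ in how strongly they bind, so a brighter probe set does not mean a more abundant transcript.

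The mean signal after trimming was 500.2 on every array, and the median was 167.6 to 180.8. Skeletal muscle markers were bright on every array, with a summed signal of 6 genes of 111076 to 136030 in normal and 99618 to 145098 in diabetic muscle. The 3′ to 5′ signal ratio of the β-actin control, a sign of RNA integrity, was 1.381 to 2.272 in normal muscle, and 1.715, 1.173 and 1.690 on diabetic arrays 1, 2 and 3. For GAPDH it was 1.269 to 4.023 in normal muscle and 1.485 to 3.997 in diabetic muscle. The study's own quality control gives lower ranges for both 3′ to 5′ ratios, and also an RNA integrity number (RIN). Why the ratios differ was not tested. For the spiked control transcripts, signals were taken relative to the geometric mean of each over the 6 arrays. The median of these was 1.958 on diabetic array 3, against 0.833 to 0.889 on the others. Diabetic array 3 also had the highest β-actin ratio of 3′ to middle signal of the 6 (3.092). Its signal was the highest of the diabetic arrays for 6 of the 9 measured genes, among them Junb, Egr1 and Myc. Whether these are linked was not tested. Diabetic array 2 had the lowest β-actin 3′ to 5′ ratio of the 6. Its GAPDH ratio (1.485) was the lowest of the diabetic arrays but not of the 6. Its β-actin ratio of 3′ to middle signal, 1.883, was above those of normal arrays 1 (1.804) and 3 (1.738). It was below those of diabetic arrays 1 (2.172) and 3 (3.092). Diabetic array 2 also had the lowest diabetic signal for 8 of the 9 measured genes, which are therefore given by array.

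Several immediate early promoters are read by serum response factor, which binds the CArG box, and by CREB and ATF proteins, which bind TGACGTCA or its shorter form TGACG. Fos and Jun family proteins pair to form AP-1, which binds TGACTCA or TGAGTCA. The RefSeq table of promoters, on the rat assembly GRCr8, held 5 of the 10 genes. The 250 bases before the annotated start are shown for Egr1 and Junb, which rose in diabetic muscle, and for Nr4a1 and Ier2, which did not pass the test. Egr1 lies at chr18:26736828-26737077 on the plus strand, Junb at chr19:40080876-40081125 on the plus strand, Nr4a1 at chr7:134259888-134260137 on the plus strand and Ier2 at chr19:40399123-40399372 on the plus strand. Capitals mark CArG boxes and TGACGTCA or TGACG on either strand, where CGTCA is TGACG on the opposite strand.
Egr1: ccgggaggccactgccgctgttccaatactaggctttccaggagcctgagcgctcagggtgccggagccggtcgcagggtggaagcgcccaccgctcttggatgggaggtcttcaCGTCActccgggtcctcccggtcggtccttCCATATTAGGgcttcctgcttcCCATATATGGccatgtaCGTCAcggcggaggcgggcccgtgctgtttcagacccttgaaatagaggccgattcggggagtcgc
Junb: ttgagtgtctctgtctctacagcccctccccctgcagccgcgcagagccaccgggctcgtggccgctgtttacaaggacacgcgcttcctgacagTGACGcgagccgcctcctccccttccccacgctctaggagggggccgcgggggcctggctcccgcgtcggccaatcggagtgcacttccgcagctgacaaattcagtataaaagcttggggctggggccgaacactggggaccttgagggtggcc
Nr4a1: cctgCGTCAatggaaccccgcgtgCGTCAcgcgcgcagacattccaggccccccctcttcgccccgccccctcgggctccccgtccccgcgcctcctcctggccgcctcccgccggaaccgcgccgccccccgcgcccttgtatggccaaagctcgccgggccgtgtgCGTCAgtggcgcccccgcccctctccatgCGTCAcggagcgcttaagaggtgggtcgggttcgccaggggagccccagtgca
Ier2: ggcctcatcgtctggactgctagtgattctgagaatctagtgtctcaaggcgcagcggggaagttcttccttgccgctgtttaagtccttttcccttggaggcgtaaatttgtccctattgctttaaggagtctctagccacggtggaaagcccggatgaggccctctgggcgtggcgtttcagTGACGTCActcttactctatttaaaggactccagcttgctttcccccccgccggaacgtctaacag
Egr1 had 2 CArG boxes, CCATATTAGG at 105 to 96 bases and CCATATATGG at 83 to 74 bases before the start, and 2 TGACG elements. Such a box was found in 1.5% of the 33469 rat promoters in the table. None of the other 4 had it. Junb had 1 TGACG element, at 155 to 151 bases, and Nr4a1 had 4. Ier2 had the full TGACGTCA at 66 to 59 bases, which also counts as a pair of overlapping TGACG elements. Btg2, at chr13:48087691-48087940 on the minus strand and not shown, had TGACGTCA at 201 to 194 bases. The full element was in 1.59% and TGACG in 18.2% of all promoters. TGACTCA or TGAGTCA (4.05% of promoters) and CACGTG, the element of Myc with Max (5.59%), were in none of these 5 windows. The EGR element GCGNGGGCG (4.29%) was in those of Nr4a1 and Btg2. TGACG was thus in the windows of Egr1 and Junb, which rose, and of Nr4a1 and Ier2, which did not pass. Of the measured genes, the CArG box was only in that of Egr1, the full TGACGTCA only in that of Ier2 and the EGR element only in that of Nr4a1.

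Junb, Egr1 and Myc rose in diabetic diaphragm, by 1.93-fold, 1.94-fold and 2.49-fold. Fos, Jun, Atf3, Nr4a1, Ier2 and Ier3 did not pass the test, and the groups overlapped in the brightest probe set of each. In all, 3 of the 9 genes passed as higher (limma, Benjamini-Hochberg adjusted p under 0.05), where 3.46% of all 7080 genes tested did. As lower, 0 of the 9 passed, where 3.55% of all genes did. At an unadjusted p under 0.05, 0 of the 9 were lower, where 11.9% of all genes were. The log2 fold change was above 0 for 7 of the 9 genes, and for 50.8% of all genes. Its median was 0.43 over the 9 genes and 0.01 over all genes. The genes were chosen with earlier results of these data known, so these differences from all genes are not independent evidence. In whole muscle, more cells of a type and more RNA per cell cannot be told apart, nor can fewer cells and less RNA.

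**Figure D1:**
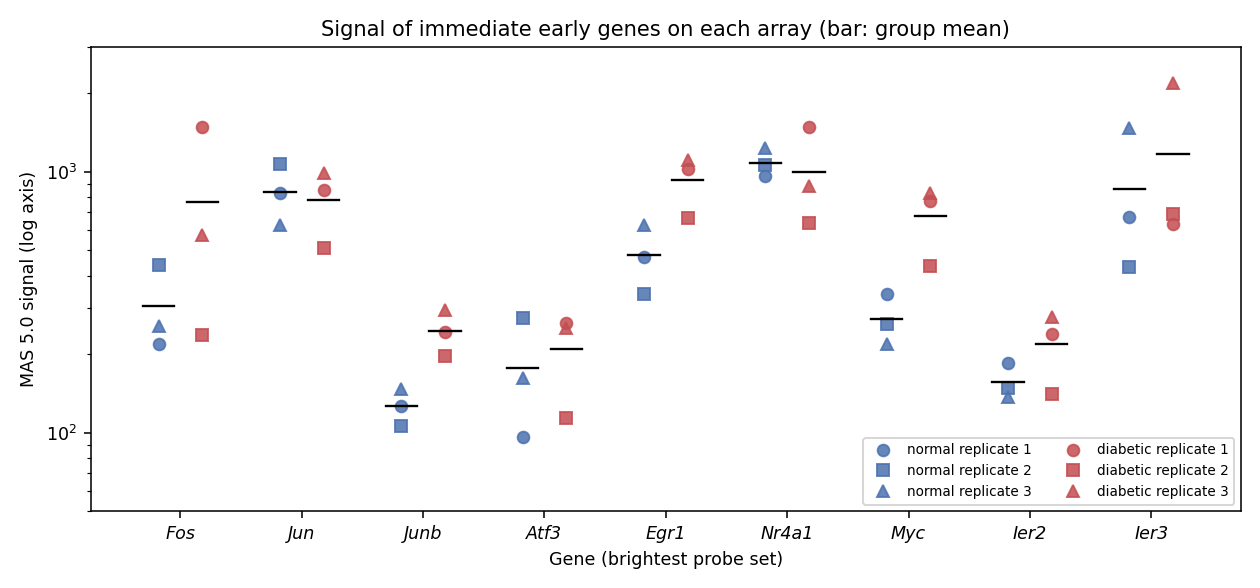
MAS 5.0 signal (log axis) of the brightest probe set of each gene on the 3 normal (blue) and 3 diabetic (red) arrays, with the symbol giving the replicate number and the bar the group mean. The 3 diabetic signals of Junb, Egr1 and Myc all lie above the normal ones, and the square of diabetic array 2 is the lowest red symbol for every gene but Ier3.

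Among the AP-1 genes, Fos had signals of 219.4, 439.4 and 256.5 on the normal arrays 1, 2 and 3 and 1481.1, 237.0 and 574.8 on the diabetic arrays. Diabetic arrays 1 and 3 lay above all normal arrays, whereas diabetic array 2 lay between them. The group means were 305.1 ± 118 and 764.3 ± 643 (SD, n = 3), a ratio of 2.51, and the log2 fold change of 1.01 (SE 0.53, 95% interval -0.17 to 2.19) did not pass (limma adjusted p = 0.28). The ratio was 3.37 without diabetic array 2 and 1.33 without diabetic array 1, so its size depended on these arrays. A further Fos probe set was dim, at 6.5, 20.8 and 43.9 in normal and 13.1, 11.9 and 9.5 in diabetic muscle, and fell below the filter. Averaged over both probe sets, the log2 fold change of Fos was 0.17 (limma adjusted p = 0.86).

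Junb, a Jun relative that forms AP-1 dimers of its own, had signals of 126.5, 106.3 and 147.0 in normal and 243.3, 196.8 and 294.3 in diabetic muscle. The groups did not overlap, and diabetic array 2 was the lowest of its group but above every normal array. The means were 126.6 ± 20.4 and 244.8 ± 48.8 (SD, n = 3), and the log2 fold change was 0.94 (SE 0.23, 95% interval 0.43 to 1.46, limma adjusted p = 0.039). Its signal is modest, at the 51.1 percentile of all probe sets, with the filter at the 40th. With 1 array left out, Junb passed only without normal array 3 (adjusted p = 0.048), and the highest adjusted p was 0.13, without diabetic array 3.

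Jun, the most common partner of Fos, was measured by 3 probe sets, and they disagreed. The brightest gave 830.6, 1067.4 and 623.0 in normal and 848.8, 508.7 and 988.0 in diabetic muscle, with overlap and a log2 fold change of -0.12 (SE 0.27, 95% interval -0.72 to 0.47, limma adjusted p = 0.82). The next gave 641.4, 718.3 and 593.1 against 908.3, 737.9 and 809.7, and the dimmest 206.3, 205.6 and 191.7 against 322.3, 232.0 and 321.2. In these last 2, every diabetic array lay above every normal array, and diabetic array 2 was again the lowest of its group. Their log2 fold changes of 0.33 (SE 0.16, limma adjusted p = 0.24) and 0.52 (SE 0.20, adjusted p = 0.14) did not pass. Averaged over the 3 probe sets, the log2 fold change of Jun was 0.24, so that even its sign depended on the probe set.

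Atf3, an ATF family factor induced by many stresses, had signals of 96.3, 275.0 and 161.9 in normal and 262.8, 113.9 and 251.8 in diabetic muscle. The widest spread was among the normal rats, and the groups overlapped. The log2 fold change was 0.27 (SE 0.41, 95% interval -0.64 to 1.18, limma adjusted p = 0.74). It was 0.66 without diabetic array 2 and -0.11 without normal array 1.

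Egr1, a zinc finger factor and a textbook target of serum response factor through the CArG boxes printed above, had signals of 473.6, 341.3 and 625.1 in normal and 1024.4, 668.4 and 1106.5 in diabetic muscle. Diabetic array 2 exceeded the highest normal array by little, and the groups did not overlap. The means were 480 ± 142 and 933.1 ± 233 (SD, n = 3), with a log2 fold change of 0.97 (SE 0.25, 95% interval 0.41 to 1.53). The limma adjusted p of 0.049 was close to the threshold. It was 0.064 after quantile normalization and 0.051 with arrays scaled to the same median. With 1 array left out Egr1 passed without normal array 3 (0.026) or diabetic array 2 (0.038), and did not pass without any of the other 4, with a highest adjusted p of 0.15 without diabetic array 3.

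Nr4a1, an orphan nuclear receptor induced by cyclic AMP and by contraction of muscle, had signals of 961.4, 1060.8 and 1233.5 in normal and 1480.4, 634.2 and 879.9 in diabetic muscle. The highest and the lowest of the 6 signals were both diabetic. The log2 fold change was -0.20 (SE 0.27, 95% interval -0.80 to 0.39, limma adjusted p = 0.70), and 0.08 without diabetic array 2.

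Myc, the E-box factor that works with Max in growth and ribosome synthesis, showed the largest log2 fold change of the 9 genes. Its signals were 339.4, 260.8 and 218.8 in normal and 770.3, 436.2 and 830.2 in diabetic muscle. The groups did not overlap, and diabetic array 2 lay nearest to the normal arrays. The means were 273 ± 61.2 and 678.9 ± 212 (SD, n = 3), with a log2 fold change of 1.28 (SE 0.26, 95% interval 0.70 to 1.86, limma adjusted p = 0.018). With 1 array left out, Myc passed without normal array 1 (0.027) or diabetic array 2 (0.0096), and for the others the adjusted p was 0.05 to 0.066. Myc is on the study's own list of genes chosen on these arrays, so its direction here is not independent evidence.

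The small immediate early genes Ier2 and Ier3, the latter a stress-inducible regulator of cell survival, did not pass. Ier2 had signals of 184.9, 148.7 and 137.5 in normal and 238.2, 141.1 and 277.0 in diabetic muscle, with diabetic array 2 among the normal values and the other 2 above them. Its log2 fold change was 0.43 (SE 0.27, 95% interval -0.17 to 1.04, limma adjusted p = 0.37), and 0.72 without diabetic array 2. Ier3 had 670.3, 431.2 and 1475.1 in normal and 630.9, 688.9 and 2190.7 in diabetic muscle, where replicate 3 was far above the others in each group. Its log2 fold change was 0.39 (SE 0.50, 95% interval -0.73 to 1.50, limma adjusted p = 0.69). The ratio of means was 2.12 without normal array 3 and 0.768 without diabetic array 3, against 1.36 with all arrays.

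**Figure D2:**
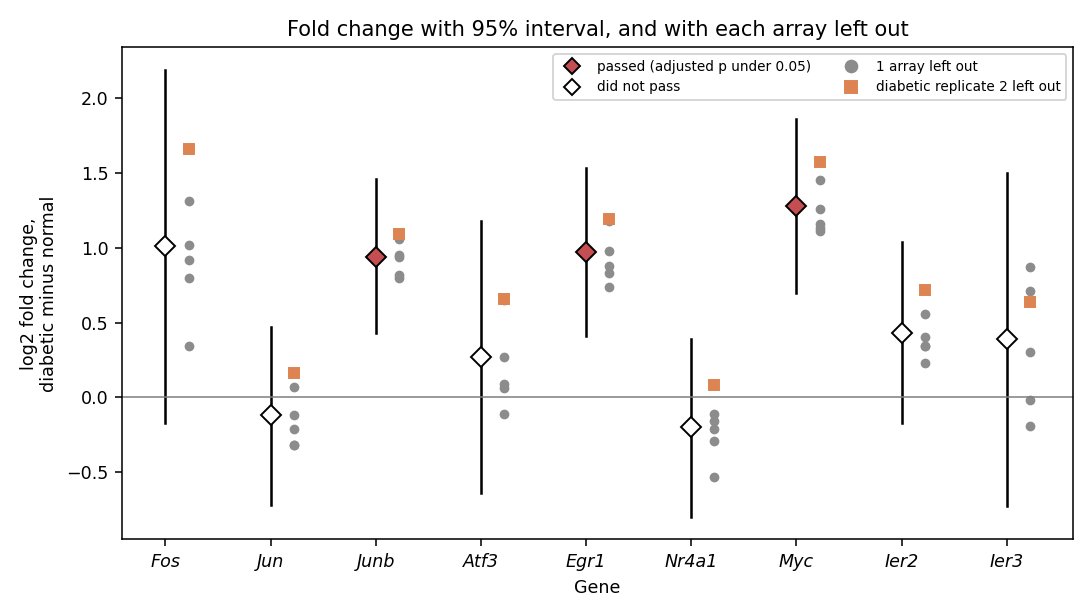
Log2 fold change (diabetic minus normal) of the brightest probe set of each gene, as a diamond with its 95% interval from the limma fit (filled where the adjusted p was under 0.05). Beside it are the values with 1 array left out (grey) and with diabetic array 2 left out (orange square), which was 1.66 for Fos and 0.08 for Nr4a1.

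Diabetic array 2 had the lowest signal of the diabetic arrays for 8 of the 9 genes, the exception being Ier3. Among all genes tested, this array was the lowest of its group for 26.7%, and among all genes called higher for 34.3%. The log2 signal on diabetic array 2 minus the mean of the other diabetic arrays was -1.96 for Fos, -1.18 for Atf3, -0.87 for Myc, -0.86 for Ier2 and -0.85 for Jun and Nr4a1. It was -0.77 for Ier3, -0.67 for Egr1 and -0.44 for Junb. The median was -0.85 over the 9 genes and 0.05 over all genes. In all genes the 5th percentile of this difference was -0.47, and 8 of the 9 genes lay below it. These are descriptions of 1 array, and no test of them can be made with 3 arrays a group. That 1 diabetic array differs was known when the genes were chosen. The differences from all genes on diabetic array 2 are therefore not independent evidence.

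Against the normal mean, the median log2 signal of the 9 genes was 0.69, -0.14 and 0.98 on diabetic arrays 1, 2 and 3. Over all genes tested it was 0.01, 0.06 and -0.01. Of the 9 genes, 8 were above their normal mean on diabetic array 1, 3 on array 2 and 8 on array 3. The 3 above it on diabetic array 2 were Junb, Egr1 and Myc, at 0.65, 0.52 and 0.70.

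**Figure D3:**
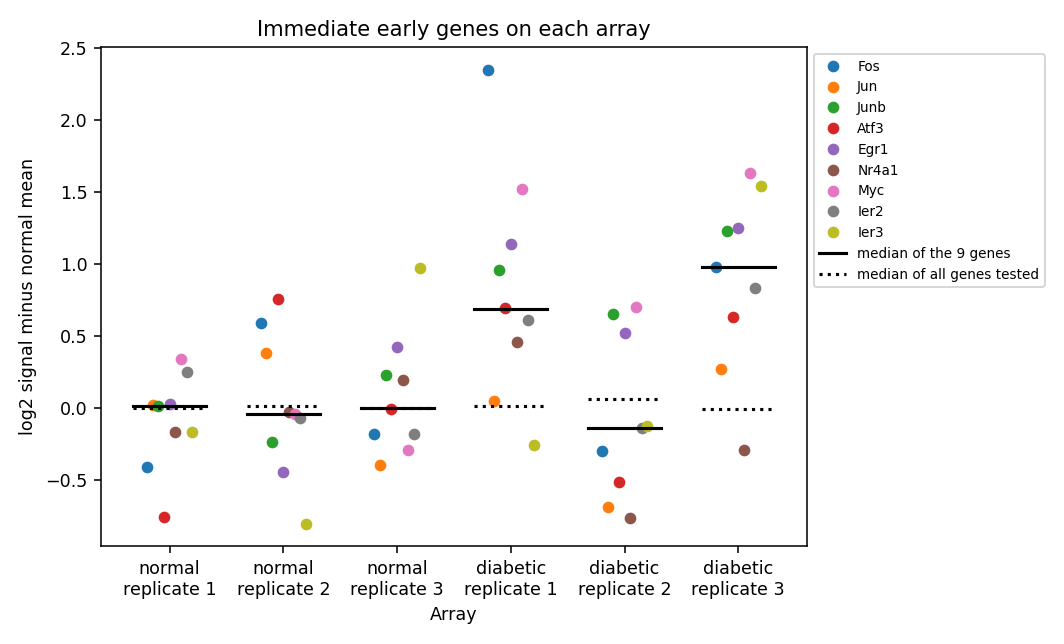
Log2 signal minus the mean log2 signal of the normal arrays, for each of the 9 genes (points) on each of the 6 arrays, with medians of the 9 genes (solid bar) and of all genes tested (dotted). The solid bar is at -0.14 on diabetic array 2, and at 0.69 and 0.98 on diabetic arrays 1 and 3.

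Every diabetic array was above every normal array for 3 of the 9 genes (Junb, Egr1 and Myc), and for 15.9% of all genes tested. Leaving out diabetic array 2, a choice made after its low values had been seen, gave 5 of 9 genes (with Fos and Ier2 added), and 19.5% of all genes. The limma fit without it called 2 of the 9 genes, Egr1 and Myc, and Junb had an adjusted p of 0.051. The skeletal muscle markers were also lowest among diabetic arrays on array 2 for 5 of 6 genes. Among the diabetic arrays, the β-actin and GAPDH 3′ to 5′ ratios were also lowest on array 2. The GAPDH values were 2.909, 1.485 and 3.997 on diabetic arrays 1, 2 and 3. So were the ratios of 3′ to middle signal, at 2.172, 1.883 and 3.092 for β-actin and 1.49, 1.134 and 1.829 for GAPDH. Of all arrays, normal array 3 had a lower GAPDH 3′ to 5′ ratio (1.269). The part of RNA integrity, cell makeup or handling in the low signals of diabetic array 2 was not tested.

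The genes whose pattern over the 6 arrays was nearest to the mean pattern of the 9 genes were Rbm3, Ndufaf4, Klf9, Enc1 and Prom1. Their root mean square differences were 0.150, 0.159, 0.168, 0.169 and 0.176 on the log2 scale, where the median over 7071 genes was 0.493. Prom1, for example, had signals of 734.2, 726.8 and 595.6 in normal and 1429.2, 721.3 and 1230.4 in diabetic muscle, with diabetic array 2 among the normal arrays. Of the 5, Klf9 passed the test. These 5 were picked for their closeness to this pattern. Their small differences, low diabetic array 2 and direction therefore follow from the choice and are not independent evidence.

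Relatives, partners and regulators of these genes were taken from 6 lists of 174 genes, of which 114 were tested. Of these, 16 rose (14%, against 3.46% of all genes) and 2 fell (1.75%, against 3.55%), and the median log2 fold change was 0.16. The lists were written with earlier results of these data known, so the differences from all genes are not independent evidence. At an unadjusted p under 0.05 12.8% of all genes were higher and 11.9% lower. Diabetic array 2 was the lowest of its group for 46 of the 114, where it was for 26.7% of all genes and 34.3% of all genes called higher. By list this held for 2 of 10 AP-1 and ATF partners, 11 of 16 family relatives and 19 of 37 other immediate early genes. It held for 3 of 19 upstream kinases and serum response factors, 4 of 18 Myc network genes and 7 of 14 integrated stress response genes. With each array left out in turn, 10 of the 18 passed in every fit. Several were chosen by the study on these arrays (Mafk, Cebpd, Eif4ebp1, Nupr1, Ppp1r15a and Map2k6), and for them the direction is not independent evidence.

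Of 10 AP-1 and ATF partners tested, 2 rose and 0 fell (limma, 0 also at an unadjusted p under 0.05), with a median log2 fold change of 0.29. Mafk, a small Maf protein, had signals of 413.5, 524.5 and 389.6 in normal and 1263.4, 1055.1 and 993.6 in diabetic muscle, with a log2 fold change of 1.32 (SE 0.18, limma adjusted p = 0.003). Atf4, the factor translated under the integrated stress response, rose by 0.89 (SE 0.16, limma adjusted p = 0.01). Neither had diabetic array 2 near the normal values, since Atf4 was 4378.0 to 5785.9 in normal and 8315.4, 8570.3 and 10348.9 in diabetic muscle. Fosb, a Fos paralog, was dim and below the filter, at 37.9, 26.3 and 24.1 against 112.4, 27.8 and 46.7.

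Of 16 tested relatives in the Egr, NR4A, Klf, Ier and Btg families, 3 rose and 0 fell (limma, 1 at an unadjusted p under 0.05), and the median log2 fold change was 0.51. Ier5, a relative of Ier2, rose by 0.91 (SE 0.17, limma adjusted p = 0.011), and Klf15, a glucocorticoid-responsive metabolic regulator, by 0.87 (SE 0.20, adjusted p = 0.029). Klf9, also a glucocorticoid target, had 2803.9, 3260.9 and 2840.2 in normal and 5263.6, 3720.2 and 5698.6 in diabetic muscle, a log2 fold change of 0.70 (SE 0.18, limma adjusted p = 0.044). With 1 array left out, Klf9 passed only without diabetic array 2 and Klf15 only without normal array 1, with highest adjusted p of 0.13 and 0.091. Diabetic array 2 was the lowest of its group for 11 of the 16. Nr4a3, the paralog of Nr4a1, stood out in that respect, with 53.8, 209.5 and 219.2 in normal and 983.0, 182.4 and 795.8 in diabetic muscle. Its log2 fold change of 1.95 (SE 0.65) did not pass (limma adjusted p = 0.1). Nr4a3 was named after its values were seen.

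Among 37 other immediate early and early response genes, 8 rose and 0 fell (limma, 1 at an unadjusted p under 0.05), with a median log2 fold change of 0.31. The largest rises were of Cebpd, an early C/EBP factor, by 1.76 (SE 0.22, limma adjusted p = 0.0023), and Ifrd1, a co-regulator in muscle regeneration, by 1.65 (SE 0.25, adjusted p = 0.005). Zfp36l2, an mRNA decay factor, rose by 1.59 (SE 0.25, limma adjusted p = 0.0059), and Gadd45b, a stress sensor upstream of p38, by 1.31 (SE 0.19, adjusted p = 0.0041). A second tested probe set of Cebpd also passed, with a log2 fold change of 1.80 (SE 0.44, limma adjusted p = 0.038). Cebpd had signals of 823.1, 596.2 and 434.2 in normal and 1853.5, 1988.4 and 2263.9 in diabetic muscle. Diabetic array 2 was thus in the middle of its group for Cebpd, and over the list it was the lowest for 19 of 37 genes. Id1, Id3, Ccn2 and Mcl1 also rose, the brightest probe set of each losing its call in 5 of 6 fits with 1 array left out. A further Mcl1 probe set also passed, with a log2 fold change of 0.87 (SE 0.18, limma adjusted p = 0.02).

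Of 19 upstream kinases and serum response factors, 0 rose (limma, 1 at an unadjusted p under 0.05) and 1 fell, with a median log2 fold change of -0.26 and 5 genes above 0. Map2k6, a kinase that activates p38, had signals of 656.7, 450.0 and 784.7 in normal and 328.1, 247.1 and 276.1 in diabetic muscle, a log2 fold change of -1.12 (SE 0.22, limma adjusted p = 0.016). The call was lost without normal array 1, diabetic array 2 or diabetic array 3, with a highest adjusted p of 0.059. Srf and Elk1, which act at CArG promoters such as that of Egr1, had log2 fold changes of -0.60 (SE 0.21, limma adjusted p = 0.12) and -0.54 (SE 0.18, adjusted p = 0.11) and did not pass. At an unadjusted p under 0.05, 9 of the 19 were lower, where 11.9% of all genes were.

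Of 18 genes of the Myc network and its textbook targets, 0 rose (limma, 7 at an unadjusted p under 0.05) and 1 fell, with a median log2 fold change of 0.16. Mlxipl, the glucose-responsive E-box factor ChREBP, had 216.7, 176.4 and 212.5 in normal and 110.5, 88.5 and 118.1 in diabetic muscle. Its log2 fold change was -0.94 (SE 0.23, limma adjusted p = 0.037). The call was lost with any 1 array left out, with a highest adjusted p of 0.12. Mlxipl passed the filter on mean signal (105.8) through its normal mean of 201.9, since its diabetic mean was 105.7. Max, the partner of Myc, had a log2 fold change of 0.61 (SE 0.22) and did not pass (limma adjusted p = 0.12).

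Of 14 genes of the integrated stress response, 3 rose and 0 fell (limma, 1 at an unadjusted p under 0.05), with a median log2 fold change of 0.22. Eif4ebp1, a repressor of cap-dependent translation, rose by 1.96 (SE 0.25, limma adjusted p = 0.0024), Nupr1, a stress-induced chromatin protein, by 1.36 (SE 0.16, adjusted p = 0.0017), and Ppp1r15a, which brings a phosphatase to eIF2α, by 1.03 (SE 0.16, adjusted p = 0.0054). Eif4ebp1 had signals of 1896.5, 1488.5 and 888.2 in normal and 5332.5, 4605.4 and 5973.0 in diabetic muscle, with no overlap. All 3 passed with each array left out in turn.

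**Figure D4:**
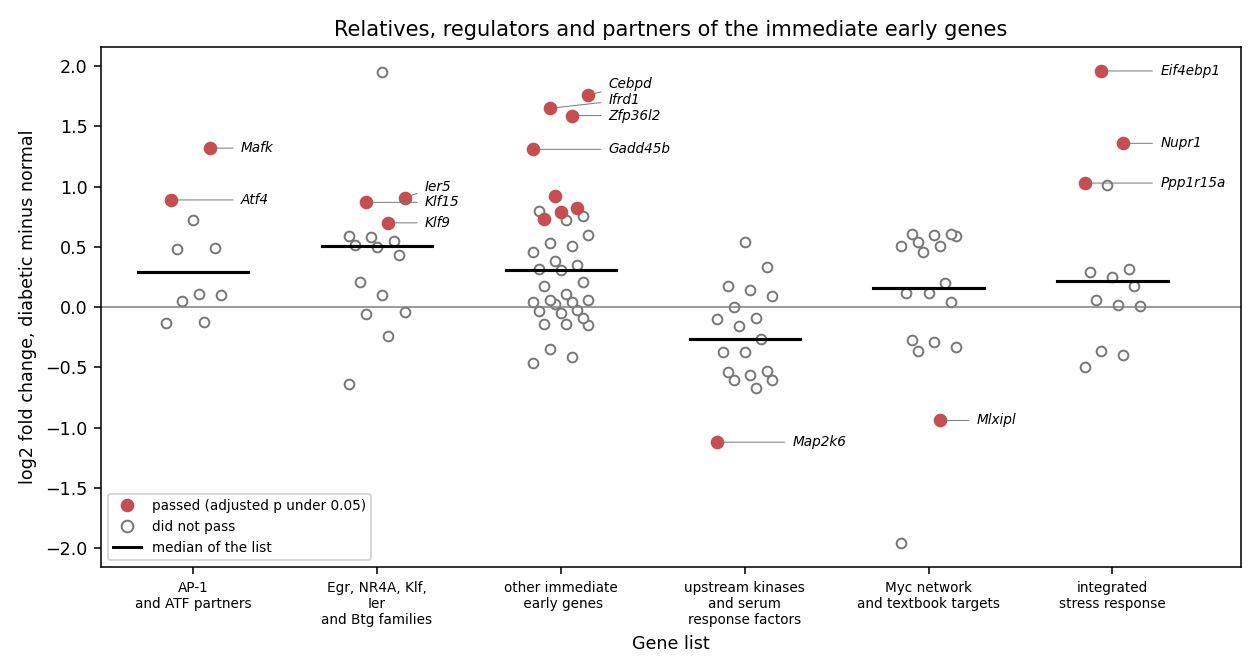
Log2 fold change (diabetic minus normal) of the tested genes of 6 lists of relatives, partners and regulators, with genes that passed the limma test filled and the largest named, and the median of each list as a bar. The medians run from -0.26 for the upstream kinases and serum response factors to 0.51 for the Egr, NR4A, Klf, Ier and Btg families.

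Markers of other cells in the muscle, of which 26 of 55 were tested in 10 lists, gave 1 gene higher and 5 lower. Of all genes tested, 3.46% were higher and 3.55% lower, so the count higher is near that share and the count lower above it. These lists too were written with earlier results of these data known. Each sum below is led by its brightest probe sets and is not a measure of cell number. Fibroblast markers had a summed signal of 22437 to 23140 in normal and 14574 to 17453 in diabetic muscle. Of these, Col1a1 and Lum were lower, Dcn and Pdgfra overlapped and did not pass, and Thy1 was below the filter. Smooth muscle markers summed to 2549 to 3375 and 1836 to 2431, with Acta2 and Smtn lower, Myh11 and Tagln not passing and Cnn1 below the filter. Endothelial markers summed to 3542 to 3685 and 3982 to 4372, with Kdr higher, Tie1 lower, and Pecam1, Vwf and Emcn not passing. Macrophage markers were at 1057 to 1197 and 871 to 1239, lymphocyte markers at 169 to 215 and 177 to 237, and mast cell markers at 869 to 1402 and 552 to 1036. Adipocyte markers were at 1781 to 2624 and 1320 to 2529, red blood cell markers at 14441 to 17258 and 15651 to 26823, and Schwann cell markers at 3151 to 4014 and 3231 to 4079. The 3 neutrophil markers with a probe set, S100a8, S100a9 and Cxcr2, were below the filter, and summed to 28 to 180 and 173 to 292. The part of these shifts in cell markers in the rise of Junb, Egr1 and Myc was not tested.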

How the data were processed

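RNA of the left costal hemidiaphragm from 3 normal and 3 streptozotocin-diabetic rats was hybridised to Affymetrix RAE 230A arrays, 1 per rat. The values the authors deposited are MAS 5.0 signals, a linear intensity per probe set after scaling of each array. For its software settings, nothing was given in the sources used here. The BAM test and the present calls of the methods were not repeated, and limma took the place of BAM.

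From the deposited intensity values, 136 signals under 1 were raised to 1 before the log2 step, and arrays were not normalized further. Not tested were 57 control probe sets and those whose mean signal did not exceed the 40th percentile (105.8). A limma 3.58.1 fit in R 4.3.3 was made on the 9519 others (lmFit, eBayes with a variance trend), with Benjamini-Hochberg adjustment over all of them at 0.05. The 6 arrays leave 4 residual degrees of freedom, and their number limits the precision. Of the probe sets, 12783 had 1 gene, 312 several and 2771 none. A gene was taken as its probe set of highest mean signal (7080 tested). Fold changes are ratios of group means, and log2 fold changes come from the fit. No exact permutation p of 3 against 3 arrays can be under 0.1.

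The members and lists were chosen with earlier results of these data known. Genes named are all members, per list up to 4 passing genes by size of log2 fold change, the 5 nearest to the mean profile of the members, and cell markers. Id1, Id3, Ccn2, Mcl1, Fosb, Srf, Elk1, Max and Nr4a3 are exceptions to the rule, picked with their values in view. The fit was tested on simulated data. Alternatives were other normalizations, offsets, filters, variance priors, array weights, thresholds, probe set averaging, the replicate number as a block, and leaving out each array.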

Additional observations from a re-analysis of the deposited data

How the results depend on the processing

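Myc passed in 12 of 16 alternatives, Egr1 in 8 of 16 and Junb in 8 of 15, and their log2 fold changes stayed above 0 in each. The 6 other genes passed in none. Without the filter on signal, 1 member passed (Myc), 200 probe sets were higher instead of 314, and 1 companion gene was lower instead of 2, as also with the filter at the 60th percentile, where Junb fell below the filter. Quantile normalization, the same median per array and no variance trend left 2 members (Junb and Myc), and offsets of 16 or 64 and array weights left all 3. An adjusted p under 0.1 gave 562 probe sets higher and 585 lower, and an unadjusted p under 0.05 gave 1163 and 1112, with 38 companion genes higher and 14 lower. With each array left out in turn, 0 to 2 members were higher, with none left without normal array 2, diabetic array 1 or diabetic array 3. In these fits 133 to 226 probe sets were higher and 179 to 235 lower, and 10 to 14 companion genes were higher and 0 to 2 lower, with 1 sample fewer in each. Signs turned only in genes that did not pass: Atf3 to -0.11 without normal array 1, Jun to 0.07 and Ier3 to -0.02 without normal array 2, Jun to 0.16 and Nr4a1 to 0.08 without diabetic array 2, Ier3 to -0.19 without diabetic array 3, and Jun to 0.24 over the mean of its probe sets. With 1 array left out in turn, Jun ran from -0.32 to 0.16, Atf3 from -0.11 to 0.66, Nr4a1 from -0.53 to 0.08 and Ier3 from -0.19 to 0.87. The cause was not tested. Without diabetic array 2, chosen after seeing the data for this count, 5 members instead of 3 did not overlap.

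Arrays of the same number in both groups share only that number: their deviations from the group means correlated at 0.098, -0.195 and -0.068. The replicate block left 162 probe sets higher and 170 lower, 1 companion gene lower, and the members Egr1 and Myc (Junb adjusted p = 0.056, limma). Signals near the filter, as those of Junb, Ier2, Atf3 and the companion Mlxipl were, limit the precision of their folds.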
